A study of Homo sapiens with 12 samples.

Results

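Cells 9 and 10 h after release from a synchronizing block into nocodazole, a drug that arrests cells in mitosis, were compared with cells 7 and 8 h after release into the vehicle DMSO, the hours at which the mitotic markers of the DMSO course were highest. The hours count from the release, and the time that cells had spent in mitosis was not measured here. The 2 late nocodazole arrays and the 2 DMSO arrays are 4 of the 12 arrays of the series, each of a different condition. They hold HCT116, a human colorectal carcinoma cell line, synchronized with a double thymidine block of 2 mM thymidine for 19 h and, after 9 h in normal medium, again for 16 h. The late nocodazole cells were then released into 0.1 mg/ml nocodazole and the compared DMSO cells into DMSO. The other 8 arrays are nocodazole at 7 and 8 h and DMSO at 0, 2, 4, 6, 9 and 10 h. With 1 array per condition there is no replicate. The spread behind every test is therefore that of neighbouring hours, and p-values measure only that spread. The drug, the extra hours since release and the level of the late arrays cannot be told apart in this comparison. The arrays measure a whole population, in which fewer cells of a type and less RNA per cell cannot be told apart.

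Mitosis is driven by CDK1 bound to cyclin B, and PLK1 is a kinase that acts from mitotic entry to cytokinesis. Nocodazole takes microtubules apart, so that chromosomes do not attach to a spindle and the spindle checkpoint keeps the anaphase-promoting complex from destroying cyclin B. The promoters of many mitotic genes carry a cell cycle gene homology region (CHR) and CCAAT boxes, through which their transcription is high in G2 and mitosis. JUN encodes a subunit of AP-1, a transcription factor of the response to stress and growth signals, and AP-1 acts on JUN's own promoter. Cells also read their tubulin: when microtubules fall apart and free tubulin dimers are abundant, the mRNAs of alpha and beta tubulin are degraded while they are translated.

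The markers of both states are shown with their promoters, because JUN separated the groups while PLK1 and CCNB1, after quantile normalization, did not. The stretches run from 250 bases before to 50 bases after the start of transcription, from RefSeq on GRCh38.p14, at chr1:58783998-58784297 on the minus strand for JUN, chr16:23678639-23678938 on the plus strand for PLK1 and chr5:69166900-69167199 on the plus strand for CCNB1. Capitals mark matches to TTTGAA or TTTAAA (the CHR), CCAAT and TGACATCA (an AP-1-like element), each searched on both strands.
JUN: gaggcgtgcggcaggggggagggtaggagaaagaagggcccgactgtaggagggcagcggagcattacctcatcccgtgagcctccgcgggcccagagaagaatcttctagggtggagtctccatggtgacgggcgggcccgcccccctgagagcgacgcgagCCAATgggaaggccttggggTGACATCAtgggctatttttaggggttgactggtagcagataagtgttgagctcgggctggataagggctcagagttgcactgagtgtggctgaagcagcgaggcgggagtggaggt
PLK1: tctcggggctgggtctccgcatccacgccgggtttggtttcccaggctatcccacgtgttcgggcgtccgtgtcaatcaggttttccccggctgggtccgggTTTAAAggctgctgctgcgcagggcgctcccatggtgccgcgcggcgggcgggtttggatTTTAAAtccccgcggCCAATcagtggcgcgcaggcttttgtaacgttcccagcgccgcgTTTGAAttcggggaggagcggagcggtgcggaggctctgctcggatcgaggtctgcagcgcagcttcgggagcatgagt
CCNB1: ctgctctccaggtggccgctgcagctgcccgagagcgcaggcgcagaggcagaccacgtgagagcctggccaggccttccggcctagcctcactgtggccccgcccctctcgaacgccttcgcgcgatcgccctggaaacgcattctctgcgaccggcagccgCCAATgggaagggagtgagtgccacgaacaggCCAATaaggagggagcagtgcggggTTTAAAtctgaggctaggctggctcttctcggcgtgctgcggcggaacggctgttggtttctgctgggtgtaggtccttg
The JUN stretch held TGACATCA 67 bases and CCAAT 87 bases before the start. The PLK1 stretch held CHR letters 148, 88 and 29 bases and CCAAT 73 bases before the start, and the CCNB1 stretch held TTTAAA 30 bases and CCAAT 87 and 55 bases before it. Of 35116 promoters of this length, 24.0% held TTTGAA or TTTAAA, 34.6% CCAAT and 2.61% TGACATCA. A match is a description of the letters and does not show binding.

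On quantile normalized values the 2 mitotic markers did not separate late nocodazole from DMSO at 7 and 8 h. The log2 signal of PLK1 was 11.52 and 11.47 in late nocodazole (9 and 10 h) and 11.52 and 11.48 in DMSO cells (7 and 8 h) (difference -0.0057, SE 0.07, limma, adjusted p = 0.962). CCNB1, which encodes cyclin B1, had 13.90 and 13.88 with late nocodazole and 13.82 and 13.96 with DMSO (difference 0.0014, SE 0.06, limma, adjusted p = 0.987). The groups overlapped for both genes. Over the whole DMSO course PLK1 was highest at 7 h and CCNB1 at 8 h, so the DMSO hours compared are those at which these markers peaked. The DMSO array at 0 h, at the block, had 8.37 for PLK1 and 12.03 for CCNB1. This depended on the scale. After each array was centred on its median, CCNB1 was 0.52 higher in late nocodazole and passed the test, and PLK1 was 0.22 higher. On the values as deposited, PLK1 was lower (-0.30) and passed, and CCNB1 had -0.0043.

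JUN was the marker that set late nocodazole apart. Its log2 signal was 10.48 and 10.55 in late nocodazole (9 and 10 h), against 6.63 and 6.97 with DMSO at 7 and 8 h. Both nocodazole values lay above both DMSO values, and the difference of 3.71 (SE 0.17, limma, adjusted p = 5.75e-05) is a 13.1-fold higher signal. With nocodazole JUN stood at 10.31, 10.55, 10.48 and 10.55 at 7, 8, 9 and 10 h. With DMSO it was 9.90, 9.51, 9.43 and 8.36 at 0, 2, 4 and 6 h, lowest at 7 and 8 h, and 7.65 and 7.86 at 9 and 10 h. All 4 nocodazole arrays were thus above all 8 DMSO arrays, by 0.41 at the nearest pair, and the low DMSO values of the comparison are the trough of the course. The gene rests on 1 probe set above the level filter, of a type (x_at) whose probes can match other transcripts. The other 3 JUN probe sets, all dimmer, differed by 0.61, 0.72 and 1.57, also higher with late nocodazole.

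**Figure D1:**
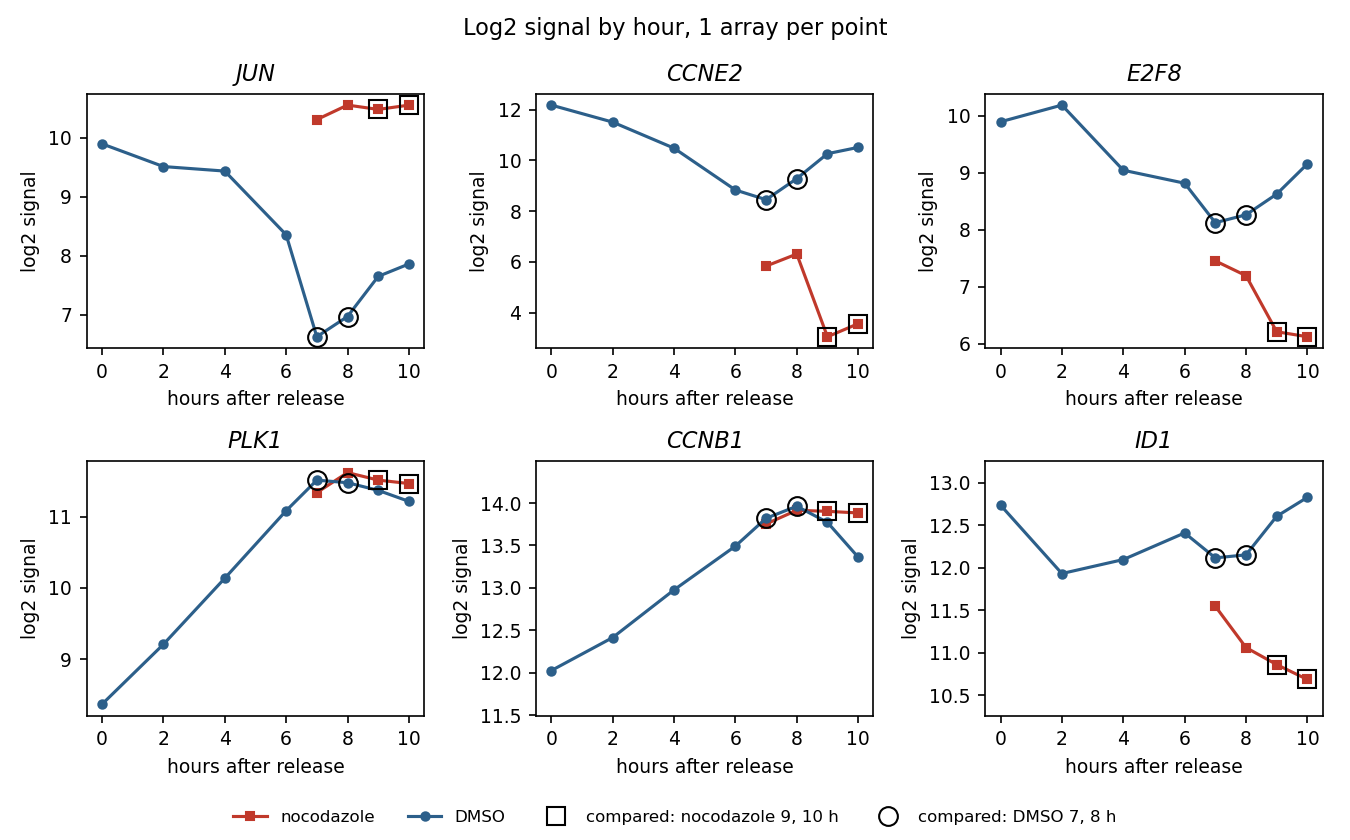
Log2 signals (quantile normalized) of JUN, CCNE2, E2F8, PLK1, CCNB1 and ID1 against hours after release, 1 array per point, with nocodazole as red squares and DMSO as blue circles. Black outlines mark the 4 arrays compared. JUN stands at 10.48 and 10.55 in the outlined nocodazole arrays and at 6.63 and 6.97 in the outlined DMSO arrays, while the outlined points of PLK1 and CCNB1 overlap on this scale.

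Values are log2 signals, quantile normalized over the 12 arrays, of the 7740 genes that reached 7 on 2 or more arrays. Between the 2 late nocodazole and the 2 DMSO arrays, 1444 genes (18.7%) passed limma's test at an adjusted p under 0.05, 717 higher (9.26%) and 727 lower (9.39%) in late nocodazole. The groups did not overlap for 4997 genes (64.6%), 2404 of them higher (31.1%) and 2593 lower (33.5%). Of the genes that passed, 185 were higher (2.39% of those tested) and 223 lower (2.88%) by at least 1 on the log2 scale. Both late nocodazole values lay above all 8 DMSO arrays for 1039 genes (13.4%) and below all 8 for 1365 (17.6%). Of those that also passed, 467 were higher (6.03%) and 576 lower (7.44%). The 1039 include 44 genes that reached 7 on the late nocodazole arrays alone, which lie above all DMSO arrays by the filter itself. The 1365 likewise include genes that reached 7 on DMSO arrays alone, such as EGFL7, and these were not counted. The median difference of all genes was -0.0157.

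**Figure D2:**
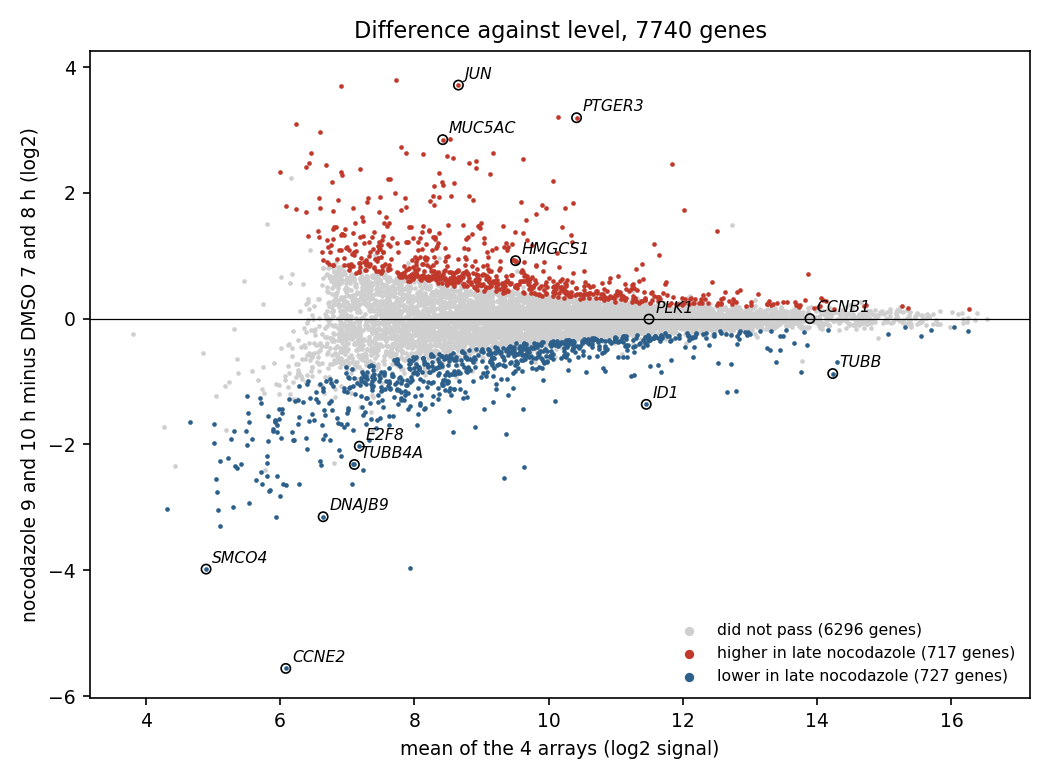
Difference between late nocodazole (9 and 10 h) and DMSO (7 and 8 h) on the log2 scale against the mean log2 signal of the 4 arrays, for 7740 genes. Red points are the 717 genes that passed limma's test and were higher, blue points the 727 that passed and were lower. JUN stands at 3.71, CCNE2 at -5.56, and PLK1 and CCNB1 close to 0.

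The direction of these counts depended on how the arrays were brought to 1 level. On the values as deposited, the median signal of the kept genes was 9.34 and 9.23 on the late nocodazole arrays and 9.91 and 9.71 on the compared DMSO arrays, with 9.57 to 9.99 on the others. The late nocodazole arrays were thus the dimmest of the 12, and their median over all probe sets was the highest, at 3.11 and 3.10 against 2.82 and 2.90. As deposited, 197 genes passed as higher and 3655 as lower (5.11% higher, against 49.7% after quantile normalization), with a median difference of -0.42 over all genes. After each array was centred on its median, 2193 were higher and 879 lower (71.4% higher), with a median of 0.11. On all 3 scales, 164 genes were called higher (2.12%) and 580 lower (7.49%). When the 12 arrays were fitted together with the array median as a covariate, an alternative added once the values were known, 0 genes passed limma's test and 323 had an unadjusted p under 0.05. With DMSO at 6 h added to the compared DMSO arrays, 293 passed.

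Single arrays also moved the counts. Without the nocodazole array at 9 h 632 genes passed, without that at 10 h 260, without the DMSO array at 7 h 669 and without that at 8 h 1600, where the lone array of a group is assumed to vary like the other group. Of 129 genes named here that passed, 54 passed in all 4 of these fits and 9 in none. Among the 54 were JUN, CCNE2, E2F8, CDK1, FBXO5, CENPC, PDS5B, MAD2L1BP, ID1, ID2, ERRFI1, DUSP6, CCN1, HMGCS1, DNAJB9 and 8 of the 10 tubulins. Of the 129, those with an adjusted p above 0.02 were not among the 54, apart from CDK1, and neither were JUNB, MUC5AC, PTGER3, MVK and BUB3.

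Epithelial markers of the cell line were measured first. Of 10 epithelial markers, 6 passed the level filter, among them EPCAM, a surface protein of epithelial cells, with 14.27 and 14.30 in late nocodazole and 14.03 and 14.18 with DMSO. CLDN4, a claudin of tight junctions, was called higher (0.57, adjusted p = 0.0157), and KRT20, CDX2, VIL1 and CEACAM5 were below the filter. Of the 6, 3 lay above DMSO without overlap and 2 below. The 2 were KRT18 (14.64 and 14.59 against 14.65 and 14.65) and KRT19 (13.57 and 13.59 against 13.66 and 13.64). CDX2 had 2.39 and 2.42 in late nocodazole and 3.88 and 3.92 with DMSO. The summed log2 level of the 10 markers was 89.3 and 90.3 in late nocodazole and 90.9 and 90.5 with DMSO. Of 13 markers of other cell types on the array, 11 were below the filter, among them PTPRC, PECAM1, VWF and ALB. The list's summed log2 level was 50.2 and 50.3 in late nocodazole and 46.5 and 47.1 with DMSO. COL1A1, a collagen chain of connective tissue, was the member called, with 8.95 and 8.95 in late nocodazole against 7.54 and 7.96 with DMSO (1.20, adjusted p = 0.00734). Its other kept probe set went the other way, and with the mean of probe sets the difference was 0.26 and did not pass. The part of these levels in the results was not tested.

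In the list of alpha and beta tubulins every gene above the filter fell. Of 17 genes, 13 were on the array and 10 passed the filter, 9 of them also on both late nocodazole arrays. All 10 were lower in late nocodazole by limma's test, without overlap, with a median difference of -0.77 (range -2.32 to -0.24) against -0.0157 for all genes. TUBB, a main beta tubulin, had 13.95 and 13.64 in late nocodazole and 14.67 and 14.66 with DMSO (-0.87, SE 0.09, adjusted p = 0.00205). TUBA4A, an alpha tubulin, had 11.24 and 11.26 in late nocodazole and 12.11 and 12.09 with DMSO (-0.85, SE 0.07, adjusted p = 0.000836). TUBB4B had 13.94 and 13.97 in late nocodazole and 14.69 and 14.61 with DMSO (-0.69, SE 0.05, adjusted p = 0.000424). Between the arrays of 1 group these 3 genes moved by less than the gap between the groups. TUBB4A, whose beta tubulin is best known from the brain, was the dimmest with 6.57 and 5.33 in late nocodazole and 8.51 and 8.02 with DMSO (-2.32, SE 0.39, adjusted p = 0.00903).

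The other 6 tubulins were TUBA1A (-0.90), TUBB3 (-0.84), TUBB2A (-0.69), TUBB6 (-0.50), TUBA1B (-0.27) and TUBA1C (-0.24), with adjusted p from 0.000836 (TUBB2A) to 0.0113 (TUBA1C) by limma. The 2 brightest, TUBA1B and TUBA1C, had the smallest differences, with 15.43 and 15.39 for TUBA1B in late nocodazole and 15.71 and 15.65 with DMSO. Array signals this high can be compressed, and probes for closely related tubulins can share transcripts, and neither was tested. The list's median was -0.81 as deposited, -0.86 with the array median as a covariate and -0.28 after centring, where TUBA1B and TUBA1C turned to 0.28 and 0.27. On all 3 scales 5 of the 10 were called lower. With nocodazole at 7 and 8 h, TUBB stood at 14.09 and 13.98 and TUBA4A at 11.30 and 11.21, below the DMSO range of 14.41 to 14.90 for TUBB and 11.76 to 12.25 for TUBA4A.

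**Figure D3:**
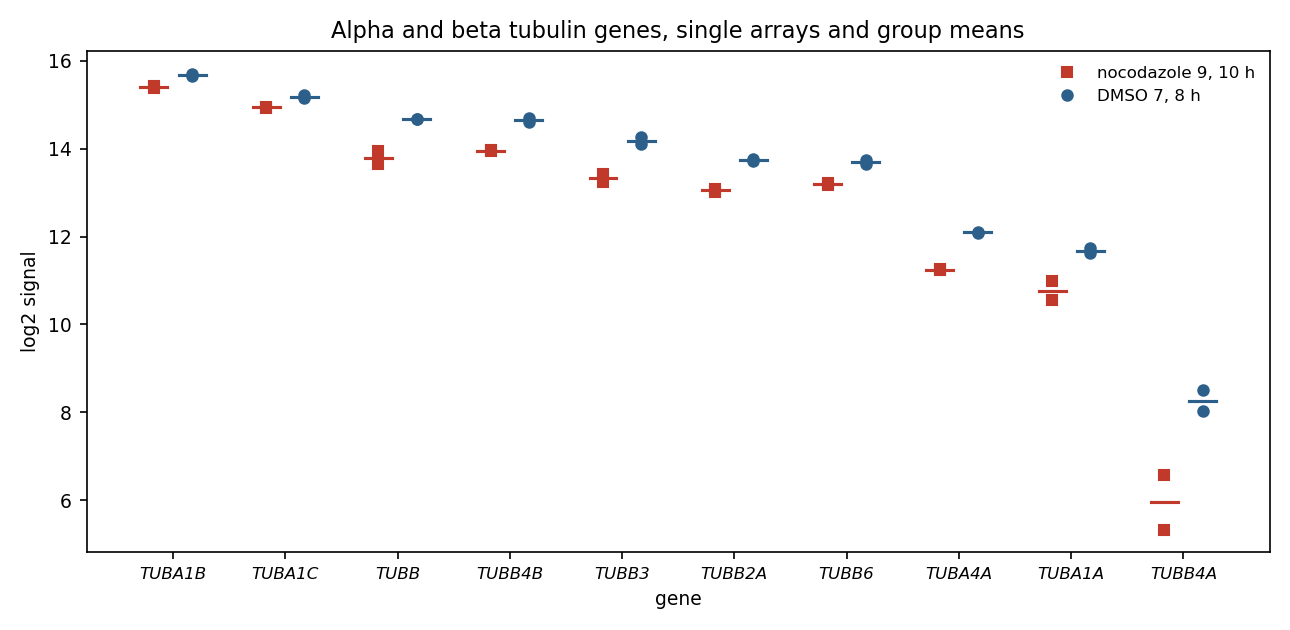
Log2 signals of the 10 alpha and beta tubulin genes above the filter, with late nocodazole (9 and 10 h, red squares) left of DMSO (7 and 8 h, blue circles). Each point is 1 array and each line a mean of 2. The red points lie below the blue ones in every gene, by 0.24 (TUBA1C) to 2.32 (TUBB4A) in the mean.

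Genes for the rarer tubulins and for enzymes and chaperones that act on tubulin had a median near 0. Of these 26 kept genes, 2 were higher and 2 lower, with a median of 0.06. TUBG1, the gamma tubulin that nucleates microtubules, fell by 0.45 (adjusted p = 0.0147) and TUBD1, a delta tubulin, by 0.55 (adjusted p = 0.0372). PFDN4, a subunit of the prefoldin chaperone that receives new tubulin and actin chains, rose by 0.21 (adjusted p = 0.0311). TTLL12, of the tubulin tyrosine ligase-like family, rose by 0.33 (adjusted p = 0.0341).

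**Figure D4:**
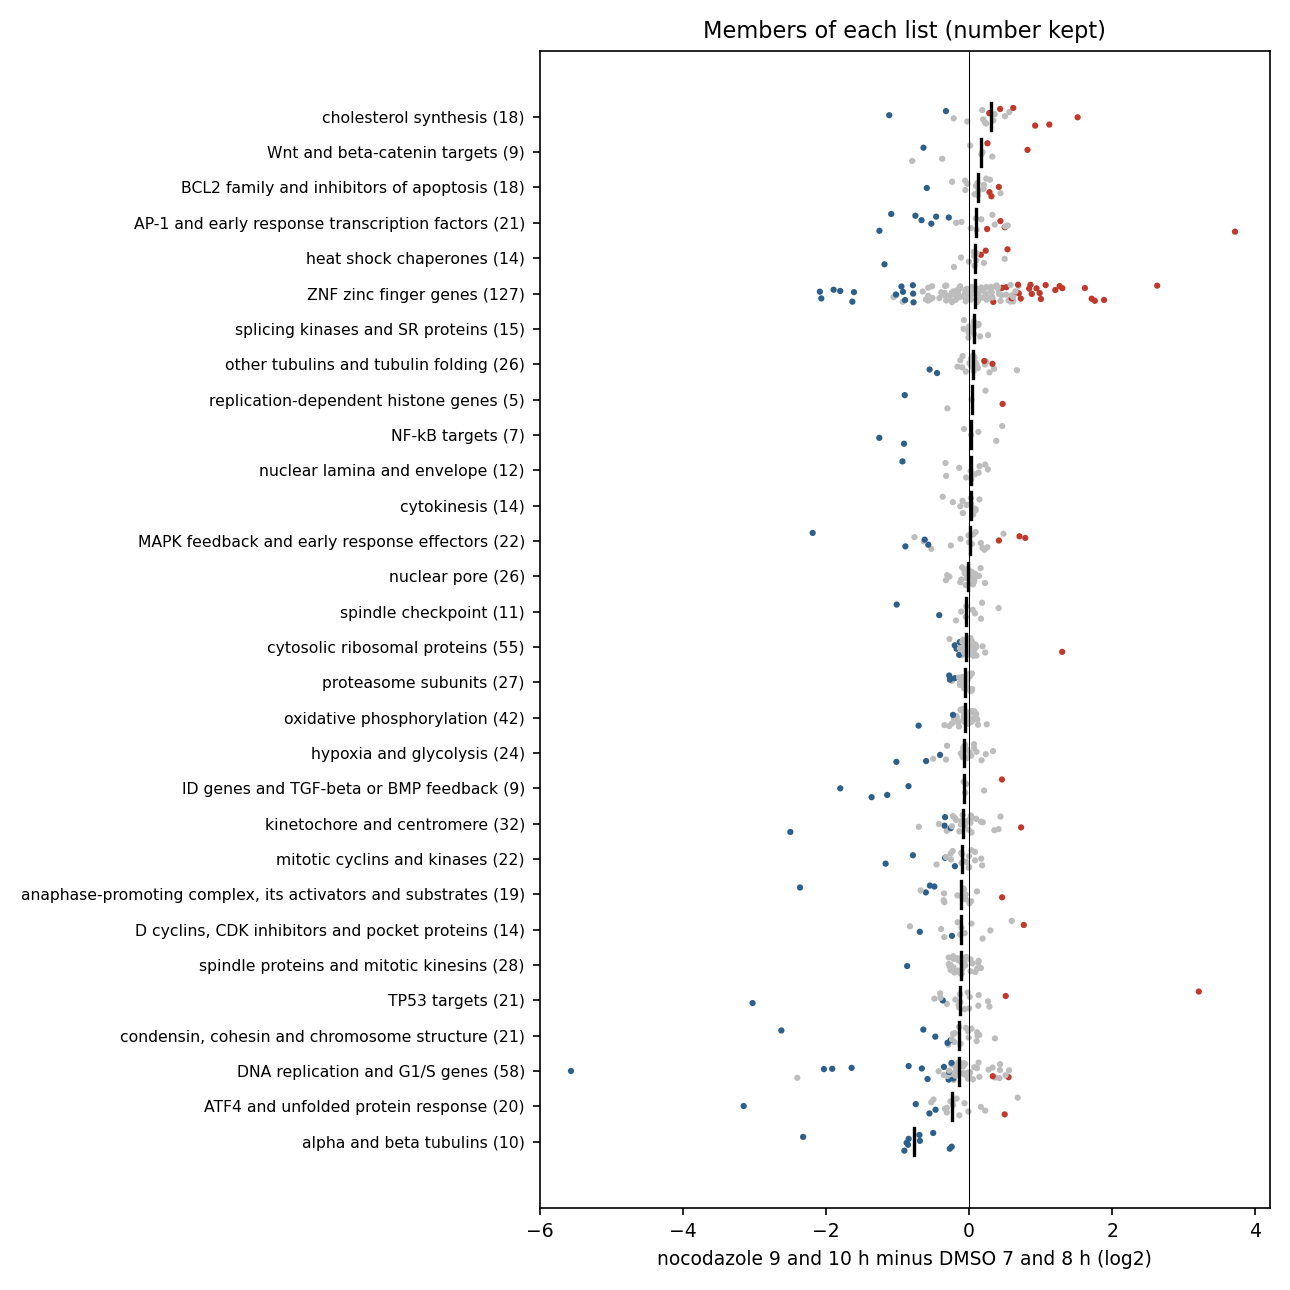
Difference between late nocodazole and DMSO at 7 and 8 h (log2) for every kept member of 30 gene lists, the number kept in brackets. Red points passed limma's test and were higher, blue points passed and were lower, grey points did not pass, and black bars are list medians. The medians run from -0.77 for alpha and beta tubulins to 0.31 for cholesterol synthesis.

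In 7 lists of the machinery of mitosis, 0 to 5 genes a list were called lower and at most 1 higher, beside 9.39% lower and 9.26% higher of all genes. Among the 22 mitotic cyclins and kinases 4 genes fell and 0 rose, with a median of -0.10. CDK1, the mitotic kinase itself, had 12.64 and 11.51 in late nocodazole and 13.37 and 13.11 with DMSO (-1.17, SE 0.29, adjusted p = 0.0288), and all 4 of its probe sets were lower. The 2 nocodazole values of CDK1 differ by more than 1, and without the 10 h array the difference was -0.60 (adjusted p = 0.0394). CDC25C, the phosphatase that activates CDK1, fell by 0.78 (adjusted p = 0.0484), WEE1, the kinase that inhibits it, by 0.34 (adjusted p = 0.0398) and CCNB2, cyclin B2, by 0.20 (adjusted p = 0.0451). After median centring CCNB2 was higher, by 0.22. DMSO cells at 9 and 10 h, the same hours as late nocodazole, were also lower in these genes than at 7 and 8 h. There CDK1 had 12.34 and 11.79, CDC25C 8.04 and 7.58, WEE1 10.79 and 10.60 and CCNB2 12.85 and 12.70. Late nocodazole had 7.77 and 7.30 for CDC25C, 10.70 and 10.53 for WEE1 and 12.78 and 12.72 for CCNB2.

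Of 28 genes for spindle proteins and mitotic kinesins, 1 was called, CENPE, a kinesin of the kinetochore, with 8.39 and 8.06 in late nocodazole and 9.34 and 8.84 with DMSO (-0.87, adjusted p = 0.0252). Of 11 spindle checkpoint genes 2 were lower. MAD2L1BP, whose protein p31comet silences the checkpoint by acting on MAD2, had 7.70 and 7.84 in late nocodazole and 8.77 and 8.80 with DMSO (-1.01, SE 0.16, adjusted p = 0.00815). BUB3, a checkpoint protein of the kinetochore, fell by 0.42 (adjusted p = 0.00828), but was 0.09 higher after centring. It had 13.74 and 13.54 in late nocodazole and 13.82 and 13.67 with DMSO at the same hours, 9 and 10 h. CENPE had 8.46 and 7.87 with DMSO at 9 and 10 h, near late nocodazole, while MAD2L1BP had 9.14 and 8.69. BUB1B, the checkpoint kinase BUBR1, and MAD2L1 itself had differences of -0.05 and 0.17 and did not pass.

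Kinetochore and centromere genes gave 1 higher and 4 lower of 32. CENPC, which anchors the kinetochore to centromeric chromatin, had 4.74 and 4.68 in late nocodazole and 7.63 and 6.79 with DMSO (-2.50, SE 0.36, adjusted p = 0.00586). The late values of CENPC are below the level filter of 7, so the size of the fall is not exact. With DMSO at 9 and 10 h CENPC had 6.08 and 6.64. MIS18A, which helps to load the centromeric histone, fell by 0.34, and CENPO, of the inner kinetochore, rose by 0.73 (adjusted p = 0.0235), a direction that turned to -0.28 with the array median as a covariate. Of 21 genes for condensin, cohesin and chromosome structure 5 were lower and 0 higher, with PDS5B, a regulator of cohesin, at 5.39 and 4.55 in late nocodazole and 7.91 and 7.28 with DMSO (-2.62, adjusted p = 0.00573). NIPBL, which loads cohesin, fell by 0.64 and SMC3, a cohesin subunit, by 0.47. Of 14 genes of cytokinesis 0 passed limma's test and 2 had an unadjusted p under 0.05, and CDC14B (-0.37) and RHOA (0.14) had the smallest p of that list.

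Of 19 kept members of the anaphase-promoting complex, its activators and its substrates, 1 rose and 4 fell. FBXO5, whose protein EMI1 inhibits the complex in S and G2 phase, had 9.14 and 7.78 in late nocodazole and 10.92 and 10.73 with DMSO (-2.36, SE 0.35, adjusted p = 0.00634). GMNN, which encodes the replication inhibitor geminin, fell by 0.48 and SKP2, an F-box protein of another ubiquitin ligase, by 0.55 (adjusted p = 0.0273), although SKP2 was 0.21 higher with the covariate. ANAPC10, a subunit of the complex, rose by 0.46 (adjusted p = 0.0199) but was -0.0074 as deposited.

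Genes of DNA replication and of the G1/S transition were called lower more often than higher, 12 against 2 of 58, beside 9.39% and 9.26% for all genes, while their median of -0.14 was near that of all genes. CCNE2, a cyclin E that drives entry into S phase, had the largest fall of all 7740 genes. It had 3.05 and 3.56 in late nocodazole and 8.45 and 9.28 with DMSO (-5.56, SE 0.37, adjusted p = 0.000424). Nocodazole at 7 and 8 h gave 5.83 and 6.31, while the DMSO course ran down from 12.18 at 0 h to 8.45 at 7 h and was 10.51 at 10 h. The late values are below the level filter of 7 and near the median of all probe sets on these arrays (3.11 and 3.10 as deposited), so the size of the fall is not exact. The other CCNE2 probe set was lower by 3.19.

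E2F8, a repressor of the E2F family, had 6.21 and 6.12 in late nocodazole and 8.13 and 8.26 with DMSO (-2.03, SE 0.22, adjusted p = 0.0028). All 4 nocodazole arrays were below all 8 DMSO arrays, which ran from 8.13 to 10.19. POLA1, the catalytic subunit of DNA polymerase alpha, had 4.87 and 4.38 in late nocodazole and 6.65 and 6.42 with DMSO (-1.91, adjusted p = 0.0125). MCM5, of the replicative helicase, fell by 0.58 (adjusted p = 0.00712). CCNE1, the other cyclin E gene, had 9.76 and 9.61 in late nocodazole and 9.85 and 10.37 with DMSO (-0.42), did not pass, and its groups did not overlap. ORC3, a subunit of the origin recognition complex, rose by 0.55. Of the regulators around this transition, CDKN1B, the CDK inhibitor p27, fell by 0.69 (adjusted p = 0.0101), CDK4 by 0.24 and RBL2, a pocket protein related to RB, rose by 0.76 (adjusted p = 0.0142).

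Of 21 early response transcription factors, 4 were higher, JUN by far the most, and 7 lower, beside 9.26% higher and 9.39% lower of all genes, the background for the lists that follow as well. On all 3 scales 1 gene of this list, JUN, was called higher and 5 were called lower. JUNB, another member of the JUN family, had 8.30 and 8.04 in late nocodazole and 9.04 and 9.80 with DMSO (-1.25, SE 0.24, adjusted p = 0.0139), the opposite direction. KLF10 fell by 0.66 (adjusted p = 0.0138), IER3 by 0.46 (adjusted p = 0.00438) and BHLHE40 by 1.09. The other genes called higher were FOSL1, a FOS family partner of JUN (0.25), KLF6 (0.44) and ATF3 (0.50, adjusted p = 0.0455), and ATF3 was -0.0155 as deposited and 0.30, not passing, without the DMSO array at 7 h.

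Of 22 feedback genes and effectors of MAP kinase signalling 3 were higher and 4 lower, all 7 in the same direction on all 3 scales. ERRFI1, an inhibitor of EGF receptors, had 14.23 and 14.19 in late nocodazole and 13.54 and 13.48 with DMSO (0.70, SE 0.05, adjusted p = 0.000424). CCN1, a secreted matrix protein, rose by 0.79 (SE 0.08, adjusted p = 0.00276). The late values of ERRFI1 and CCN1 lay inside the range of the whole DMSO course, whose highest values, at 2 h, were 14.28 and 12.32. DUSP6, a phosphatase of ERK kinases, had 10.90 and 10.75 in late nocodazole and 11.56 and 11.86 with DMSO (-0.89, adjusted p = 0.00406), and IRS2, an adaptor of insulin signalling, fell by 2.19 (adjusted p = 0.0049).

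ID1 and ID2, inhibitors of basic helix-loop-helix factors and targets of BMP signals, were low on all nocodazole arrays. ID1 had 10.86 and 10.69 in late nocodazole and 12.12 and 12.15 with DMSO (-1.36, SE 0.08, adjusted p = 0.000356). ID2 had 12.33 and 12.11 in late nocodazole and 13.22 and 13.51 with DMSO (-1.14, SE 0.10, adjusted p = 0.00134). With nocodazole at 7 and 8 h, ID1 stood at 11.55 and 11.06 and ID2 at 12.43 and 11.94, all below the 8 DMSO arrays, whose lowest values were 11.93 and 13.05. Of the 9 kept genes of this list, 4 fell, the other two being SKIL (-1.80) and TGIF1 (-0.85), which both restrain SMAD proteins. SMURF2, a ubiquitin ligase for SMADs and their receptors, rose by 0.46 (adjusted p = 0.00573). The same list had 4 lower genes on all 3 scales.

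JUN, ID1, ID2, E2F8 and CCNE2 belong to the genes that all nocodazole arrays shared. Over the 7740 genes, all 4 nocodazole arrays were above all 8 DMSO arrays for 149 genes (1.93%) and below them for 290 (3.75%). The level filter partly set these counts. BMS1P1 and GTF2H2B, with highest DMSO values of 6.75 and 6.49, are among the 149 and reached 7 only with nocodazole. CCNE2, SP4 and ARRDC3 are among the 290 and reached 7 only with DMSO. How many genes were of either kind was not counted.

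Apart from the 2 kept markers of other cell types (median 0.75), genes of cholesterol synthesis had the highest median of the lists, 0.31, with 6 of 18 higher and 2 lower, and 14 of the 18 lay above DMSO without overlap, beside 31.1% of all genes. MVK, mevalonate kinase, had 8.00 and 7.76 in late nocodazole and 6.16 and 6.57 with DMSO (1.52, SE 0.25, adjusted p = 0.00818). INSIG1, which retains the sterol sensor in the endoplasmic reticulum, had 9.03 and 9.00 in late nocodazole and 7.48 and 8.30 with DMSO (1.12). HMGCS1, an early enzyme of the pathway, had 10.01 and 9.93 in late nocodazole and 8.89 and 9.20 with DMSO (0.92, SE 0.14, adjusted p = 0.00649), and MSMO1 rose by 0.43 (adjusted p = 0.0109). SREBF1, a transcription factor of lipid synthesis, went the other way with 7.06 and 7.11 in late nocodazole and 8.11 and 8.29 with DMSO (-1.12, adjusted p = 0.0109). The late values of MVK, HMGCS1 and MSMO1 lay inside the range of the 8 DMSO arrays, whose highest values were 8.09, 10.04 and 11.8. The list's median was -0.15 as deposited, above the -0.42 of all genes, and 1 gene was called higher on all 3 scales.

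Of 20 genes of the ATF4 and unfolded protein response, 1 was higher and 4 lower, with a median of -0.24. DNAJB9, a cochaperone of the endoplasmic reticulum, had 5.19 and 4.95 in late nocodazole and 7.98 and 8.45 with DMSO (-3.15, SE 0.28, adjusted p = 0.00129), and its other 2 probe sets were also lower. XBP1, a transcription factor of this response, fell by 0.47 (adjusted p = 0.0354) and CEBPG by 0.74 (adjusted p = 0.0273).

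Of 18 listed genes of the BCL2 family and inhibitors of apoptosis, 3 were higher and 1 lower, with differences from -0.59 to 0.44. BIRC7, an inhibitor of apoptosis that was not in the list, rose by 2.63. MCL1, which protects cells from death during mitotic arrest, had 12.17 and 12.20 in late nocodazole and 11.80 and 11.94 with DMSO (0.31, SE 0.07, adjusted p = 0.0239). As deposited MCL1 differed by 0.11, and on all 3 scales 0 genes of this list were called higher. PMAIP1, which encodes NOXA and opposes MCL1, rose by 0.28 (adjusted p = 0.0335), but was 0.10 lower with DMSO at 6 h included, and 0.19 higher, not passing, without the nocodazole array at 9 h. BIK rose by 0.42 and was -0.0609 as deposited, and BID, a BH3-only protein that promotes cell death, fell by 0.59 (adjusted p = 0.0128). Of 21 p53 targets 2 were higher and 2 lower, with TP53INP1 at 3.03 and 2.57 in late nocodazole and 5.89 and 5.77 with DMSO (-3.02, adjusted p = 0.00712). GADD45A, a stress gene of the same list, fell by 0.37 (adjusted p = 0.0327), and AEN, an exonuclease, rose by 0.51. AEN was -0.0252 as deposited, and GADD45A was 0.06 higher with the array median as a covariate. The other p53 target called higher was POLH (3.21), of whose 6 probe sets 4 differed downward.

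In the remaining lists the counts are again to be read beside 9.26% of all genes called higher and 9.39% lower. Of 26 nuclear pore genes and 15 splicing kinases and SR proteins 0 passed limma's test, with 3 and 0 at an unadjusted p under 0.05. Of 42 genes of oxidative phosphorylation 2 fell, of 27 proteasome subunits 3 fell and of 24 genes of hypoxia and glycolysis 3 fell, among them VEGFA (-1.02, adjusted p = 0.0326). Of 55 ribosomal protein genes 1 was higher and 4 lower, with falls of 0.13 for RPS23 to 0.20 for RPLP1. After centring on each array's median, the differences of RPS23, RPLP1, RPL37 and RPL14 turned positive. Of 7 NF-kB targets, NFKB1 and NFKBIA fell by 1.25 and by 0.91. Of 14 heat shock chaperones 3 were higher and 1 lower, HSPA4L (-1.18, adjusted p = 0.026). Of 9 Wnt targets 2 rose, NOTUM (0.82) and CD44 (0.26), and SOX4 fell by 0.64. Of 12 genes of the nuclear lamina and envelope 1 fell, NEMP1 (-0.93, adjusted p = 0.0172). Of 127 ZNF zinc finger genes 23 were higher and 13 lower, from ZNF57 (-2.08) to ZNF808 (2.63). On all 3 scales 6 of the ZNF genes were called higher and 13 lower. The replication-dependent histones gave 1 higher and 1 lower of 5, H2AC25 (0.47) and H2BC12L (-0.90). Without the nocodazole array at 10 h, VEGFA (-0.63), NFKBIA (-0.60), HSPA4L (-0.74) and CD44 (0.16) no longer passed, and without the DMSO array at 7 h RPLP1 had -0.12.

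The 15 largest falls ran from -5.56 to -2.65. After CCNE2 came SMCO4, with 3.25 and 2.57 in late nocodazole and 7.09 and 6.69 with DMSO (-3.98, adjusted p = 0.00284), and PHF13, a reader of histone methylation, with 7.07 and 4.84 in late nocodazole and 9.73 and 10.10 with DMSO (-3.96, adjusted p = 0.00591). Then followed RPS6KC1 (-3.30), SOWAHC (-3.16), DNAJB9 (-3.15), EGFL7 (-3.05), TP53INP1 (-3.02), WDR72 (-2.99), BLM (-2.93), SP4 (-2.81), RCAN3 (-2.76), GZF1 (-2.74), TMEM68 (-2.72) and JMY (-2.65). BLM encodes a DNA helicase of recombination, SP4 a transcription factor and JMY an actin nucleator. In 9 of the 15 a late nocodazole value was 4 or lower, well below the level filter of 7, so their sizes are not exact. Without the nocodazole array at 10 h, BLM had -1.78 (adjusted p = 0.0521) and TMEM68 -1.46 (adjusted p = 0.0715) by limma, and TP53INP1 (-2.79) and RCAN3 (-2.77) also no longer passed. RCAN3 did not pass without the 9 h array either (-2.75, adjusted p = 0.051). EGFL7, GZF1 and RCAN3 reached 7 only on DMSO arrays. Without those at 7 and 8 h they would not have passed the filter, which thus partly set their place below DMSO. All 15 falls lay below all 8 DMSO arrays and were called lower on all 3 scales. With the array median as a covariate their median difference was -2.27 in place of -3.02, and all 15 stayed negative, from -5.57 (CCNE2) to -1.15 (BLM).

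The 15 largest rises ran from 2.59 to 3.79, and apart from JUN they followed another course. LINC02941, a long noncoding RNA, had 9.52 and 9.74 in late nocodazole and 4.92 and 6.75 with DMSO (3.79, SE 0.48, adjusted p = 0.00438). PTGER3, a prostaglandin receptor, had 11.94 and 12.09 in late nocodazole and 7.73 and 9.90 with DMSO (3.20, SE 0.53, adjusted p = 0.00882). MUC5AC, a gel-forming mucin, had 9.86 and 9.83 in late nocodazole and 6.05 and 7.95 with DMSO (2.85, SE 0.48, adjusted p = 0.00964). In each of these 3 the DMSO array at 7 h lay far below that at 8 h, unlike in JUN. The others were SNX8 (3.69), POLH (3.21), AKR1E2 (3.10), GPR26 (2.96), GARIN4 (2.86), DSPP (2.74), ARHGAP30 (2.64), KCNF1 (2.63), ZNF808 (2.63), BIRC7 (2.63) and TMEM151B (2.59). DSPP encodes a protein of the dentin matrix, GPR26 an orphan receptor and KCNF1 a potassium channel subunit. AKR1E2 and ZNF808 reached 7 on the late nocodazole arrays alone, so that the level filter kept them only through the group in which they are high. Outside these arrays GPR26 reached 7 only with DMSO at 4 h (7.23), so it also needed them to pass the filter. Without the DMSO array at 7 h, PTGER3, MUC5AC, GARIN4, DSPP, KCNF1, BIRC7 and TMEM151B had 1.61 (KCNF1) to 2.11 (PTGER3). These 7, ZNF808 and ARHGAP30 no longer passed without the nocodazole array at 10 h, with adjusted p from 0.05 (ARHGAP30) to 0.0955 (TMEM151B) by limma, and KCNF1 also not without that at 9 h.

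All 15 rises were lower with DMSO at 7 h than at 8 h, 13 were lower with nocodazole at 8 h than at 7 h and 11 with DMSO at 10 h than at 9 h. In each of these 3 pairs the first array has the higher median signal as deposited. Of all 717 genes called higher, 82.0% were lower with DMSO at 7 h than at 8 h, against 53.0% of all genes, 68.8% were lower with nocodazole at 8 h than at 7 h, against 48.0%, and 64.9% with DMSO at 10 h than at 9 h, against 50.6%. Of the 727 called lower the shares were 33.1%, 47.2% and 47.5%. With the array median as a covariate the median of the 15 rises was 0.81 in place of 2.86, with a range of -0.54 (MUC5AC) to 3.76 (JUN). JUN kept its size with the covariate (3.76, SE 0.45), at an adjusted p = 0.133 by limma in that fit, and LINC02941 had 0.81.

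Probe sets of the x_at type carried 5 of the 15 largest rises and none of the 15 largest falls. They carried 17.4% of the genes called higher and 5.23% of those called lower, against 6.93% of all genes. For POLH, a DNA polymerase for damaged templates, an x_at probe set gave the rise of 3.21, while 4 of its 6 probe sets differed downward, 2 of them by 1.62 and 1.94. In both sets of 15, 13 genes rest on 1 probe set above the filter. Where a gene had several, all had the same sign for 127 of 221 genes called higher (57.5%), for 145 of 234 called lower (62.0%) and for 1184 of 2483 that did not pass (47.7%). Among the named genes that passed, the kept probe sets differed in sign for BID, CD44, COL1A1, HSF1, HSP90AB1, HSPA4L, MCL1, MIS18A, PHF3, PPM1H, RPL37, SMC3, SOX4, TTLL12, TUBD1 and VEGFA. The part of the array level and of the probe type in these rises was not tested further.

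**Figure D5:**
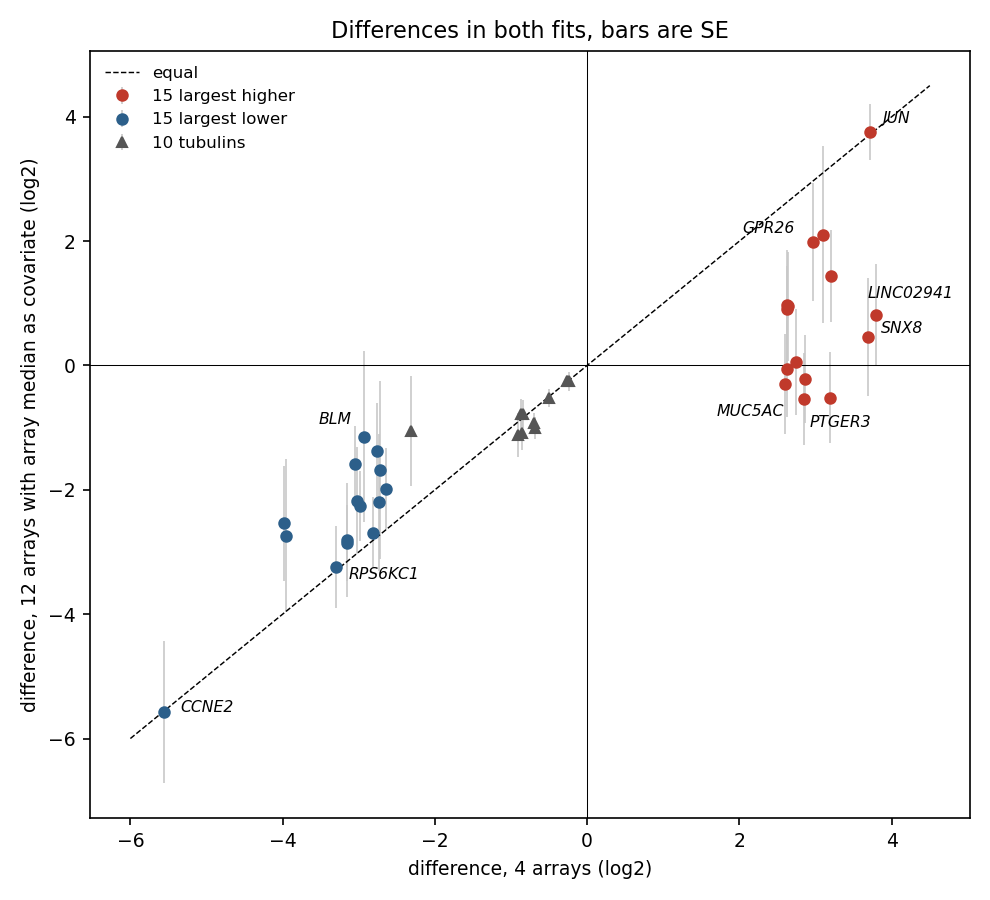
Difference between late nocodazole and DMSO at 7 and 8 h (log2) from the 4 arrays (horizontal) and from all 12 arrays with the array median as a covariate (vertical, bars are SE of that fit), for the 15 largest rises, the 15 largest falls and the 10 tubulins. Points on the dashed line are equal in both. JUN (3.71 and 3.76) and CCNE2 (-5.56 and -5.57) lie on the line, while MUC5AC and PTGER3 lie below 0 on the vertical axis.

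The 8 called genes farthest above the whole DMSO range were ZNF808 and 7 with smaller differences. ZNF808 and DIAPH3-AS1, which reached 7 on the late nocodazole arrays alone, passed the filter only through these arrays, so their place above all DMSO arrays was partly set by the filter, and neither passed without the nocodazole array at 10 h. PPM1H, a protein phosphatase, had 10.05 and 10.19 in late nocodazole, against 7.44 and 8.02 with DMSO (2.39, adjusted p = 0.000953) and a highest DMSO value of 8.83. PHF3, a regulator of transcript elongation, had 11.18 and 11.12 in late nocodazole and 8.52 and 9.41 with DMSO (2.18, adjusted p = 0.0028). LPP, a protein of focal adhesions, had 9.72 and 9.91 in late nocodazole and 7.69 and 8.17 with DMSO (1.88, adjusted p = 0.00201), and its 3 kept probe sets were all higher, while 1 of the 2 of PPM1H and 2 of the 3 of PHF3 were. With nocodazole at 7 and 8 h, PPM1H stood at 7.29 and 7.18, PHF3 at 9.25 and 8.88 and LPP at 8.03 and 7.97, inside the DMSO range. SLC9A5, a sodium-proton exchanger, and DIAPH3-AS1 had the same order, and ZNF160 had 9.99 and 9.63 at these hours, beside a highest DMSO value of 9.90. LOC100190986 differed, with 8.90 and 8.95 in late nocodazole, 7.55 and 7.48 with DMSO (1.41, adjusted p = 0.00338), and 8.19 and 8.98 already with nocodazole at 7 and 8 h. With the covariate these 7 genes had differences of 0.94 to 1.45.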

How the data were processed

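RNA of synchronized HCT116 cells was measured on Affymetrix U133 Plus 2.0 arrays. The authors deposited log2 signals for 54675 probe sets, made with GC-RMA according to their methods and the processing notes, which give no version. That the scale is log2 was inferred from the range. The number of arrays limits the precision, and 0 columns belong to other samples. The annotation of the array gave 1 symbol for 41097 probe sets, several for 1801 and none for 11777. Values were quantile normalized over all probe sets and 12 arrays, because the deposited arrays do not share 1 distribution. A gene was the probe set with the highest mean, kept where it reached 7 on 2 or more arrays. This gave 7740 of 19775 genes, 44 of which reached 7 on the late nocodazole arrays alone.

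Late nocodazole and DMSO at 7 and 8 h were compared with limma 3.58.1 in R 4.3.3 (intensity trend, Benjamini-Hochberg adjusted p under 0.05). Groups did not overlap where both values of one lay above both of the other. In simulation with 7740 genes, 62% of changes of 1 and 90% of changes of 2 on the log2 scale were recovered, with 4 false calls. The simulated noise was independent between genes and arrays, with 100 genes changed per size and no shift shared by an array. The 4 false calls therefore do not measure false calls among the 1444 genes that passed. Named were the markers, the 15 largest differences in each direction, up to 4 called members of each list or 2 where none was called, the 8 genes in each direction farthest outside all 8 DMSO arrays, and all tubulins above the filter, 137 genes in all. Other genes were named after their values were seen. The comparison, the members and the gene lists were chosen with earlier results of these data known. Alternatives were other normalizations, level filters, probe set rules, DMSO hours, variance models, each array left out and, added once the values were known, the array median as a covariate. Tables and plots used Python 3.11.15, numpy 2.4.6, pandas 2.3.3 and matplotlib 3.10.9. Promoter sequences came from RefSeq (GRCh38.p14). Flow cytometry and other datasets of the study were not analysed here.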

Additional observations from a re-analysis of the deposited data

Results flagged for a closer look

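Probe sets without a single gene symbol took no part in the comparison by gene. Of them, 1474 were above the level filter. In 324 (22.0%) both late nocodazole arrays lay above all 8 DMSO arrays, and in 195 (13.2%) both lay below. Any that reached the filter's level on the late nocodazole arrays alone lie above all DMSO arrays by the filter itself. Any that reached it on DMSO arrays alone could likewise owe their place below DMSO partly to the filter. How many were of either kind was not counted, so these shares do not show a response to nocodazole. Among the 7740 genes with a symbol the shares were 13.4% and 17.6%, but there each gene is its probe set with the highest mean.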

How the results depend on the processing

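The number of arrays and the brightness of the late nocodazole arrays limit every count here. Against 1444 genes that passed (717 higher, 727 lower) and 4997 without overlap (2404 higher, 2593 lower), the values as deposited gave 3852 that passed (197 higher, 3655 lower), with 623 above and 5853 below without overlap. Centring each array on its median gave 3072 (2193 higher), with 3661 above without overlap. A filter at 9 gave 780 (384 higher, 396 lower) and 1542 above without overlap. Without a level filter 895 of 19775 genes passed (410 lower), 275 of them among the 1444 in the same direction, and 14379 did not overlap (8091 above, 6288 below). With _at probe sets only, 926 of 5066 genes passed (444 higher, 482 lower) and 3238 did not overlap (1506 above). JUN could not be fitted there, since its _at probe set lay below the filter. With DMSO at 6, 7 and 8 h, 293 passed (90 higher, 203 lower). Without the intensity trend 621 passed (304 higher, 317 lower). With the array median as a covariate, chosen after seeing the data, 0 passed by limma (0 higher, 0 lower) and 323 had an unadjusted p under 0.05. With 1 array left out, 260 to 1600 passed (93 to 835 higher, 167 to 765 lower) and 6255 to 6521 did not overlap. The filter at 5, the filter on the 4 arrays, quantile normalization over the 4 arrays, the mean of probe sets and the spread of 12 arrays kept the count of called genes within 1.5 times. The cause of these differences was not tested.

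Of the 129 named genes that passed, the number that kept direction and call was 109 as deposited, 107 after centring, 58 with DMSO at 6 h, 65 without the trend, 58 without a filter, 0 with the covariate and 55 (without nocodazole at 10 h) to 116 (without DMSO at 8 h) with 1 array left out. Directions turned for these named genes. As deposited they were AEN (-0.0252), ANAPC10 (-0.0074), ATF3 (-0.0155), BIK (-0.0609), CCNB1 (-0.0043), CLK3 (-0.261), H2AC25 (-0.0709), HSF1 (-0.0315), NUP50 (-0.0069) and TRA2A (-0.123). After centring they were BUB3 (0.0935), CCNB2 (0.225), CDK4 (0.112), CENPN (0.0409), COX6B1 (0.164), PLK1 (0.223), PSMC6 (0.0077), PSMD2 (0.188), PSMD8 (0.127), RPL14 (0.446), RPL37 (0.403), RPLP1 (0.482), TUBA1B (0.285) and TUBA1C (0.265). With the covariate they were CCNB1 (-0.761), CD44 (-0.138), CDC14B (0.226), CENPO (-0.276), CLDN4 (-0.162), GADD45A (0.0603), GARIN4 (-0.219), H2AC25 (-0.0682), HSP90AB1 (-0.029), KCNF1 (-0.0626), MUC5AC (-0.539), NUP50 (-0.0502), NUP85 (0.103), PTGER3 (-0.517), SKP2 (0.208) and TMEM151B (-0.2999). With DMSO at 6 h they were PLK1 (0.132), PMAIP1 (-0.0992) and TRA2A (-0.012). With the mean of probe sets they were NUP50 (-0.0152) and RPL37 (0.0741), and with _at probe sets RPL37 (0.185). With 1 array left out, CCNB1 ran from -0.0694 to 0.0722 and PLK1 from -0.0299 to 0.0186.

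No paired analysis was possible because the labels give no replicate numbers and the groups compared share no hour.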

Other observations

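Of the 149 genes in which all 4 nocodazole arrays lay above all 8 DMSO arrays, 4 that encode proteins of the cell surface or enzymes of its matrix are given here. They were picked for that after their values were seen, other genes had wider gaps, and no test of such genes as a group was made. HAS3, a hyaluronan synthase, had 9.87 to 10.28 with nocodazole and 8.55 to 9.42 with DMSO. COL13A1, a transmembrane collagen, had 8.53 to 8.85 with nocodazole and 7.48 to 8.13 with DMSO. EXT1, which builds heparan sulfate chains, had 8.73 to 9.24 with nocodazole and 7.48 to 8.45 with DMSO. PIEZO1, a mechanosensitive ion channel, had 11.01 to 11.09 with nocodazole and 10.08 to 10.76 with DMSO. In late nocodazole against DMSO at 7 and 8 h these 4 differed by 0.31 (PIEZO1) to 0.90 (EXT1), with limma's adjusted p from 0.0113 (HAS3) to 0.0364 (PIEZO1).

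Of the 290 genes on the other side, 3 were picked for a wide gap after their values were seen. ARRDC3, an arrestin-like protein, had 4.09 to 4.66 with nocodazole and 5.39 to 9.14 with DMSO, but did not pass in the comparison (-1.23, limma, adjusted p = 0.0678). ARRDC3 reached the filter's level of 7 only with DMSO, so the filter partly set its place. TPBG, a surface glycoprotein, had 9.31 to 9.75 with nocodazole and 10.17 to 11.32 with DMSO (-0.77, adjusted p = 0.0095). ZNF503, a zinc finger gene, had 9.91 to 10.51 with nocodazole and 10.97 to 12.28 with DMSO (-0.78, adjusted p = 0.0128).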
